A study of Mus musculus with 2 samples.

Results

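The 10 genes described here are Clk1, Clk2, Clk3, Clk4, Ddx5, Ddx17, Rbm5, Nxf1, Ogt and Mat2a, which are known for messages that hold an intron in the nucleus. Their members were all transcripts of any biotype whose gene symbol in the GENCODE M21 annotation (GRCm38) was one of these names. They came to 91 of the 121429 transcripts with an exon value: 29 protein-coding, 38 retained-intron, 13 nonsense-mediated decay (NMD) and 11 processed transcripts. Retained-intron and processed transcripts are noncoding annotated forms, and an NMD transcript carries a stop codon placed so that the message is open to decay.

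The cells were wild-type, feeder-depleted XY mouse embryonic stem cells (mESC) of the line DTCM23/49, grown with leukemia inhibitory factor. They received 200 µM 4-thiouridine (4sU), a uridine analogue that enters new RNA, for 10 min. RNA was biotinylated at 4sU and split on streptavidin beads into labeled RNA, made during the pulse, and unlabeled RNA, and each gave 1 library of replicate 1. The labels name the second library both preexisting and total RNA, and it is treated here as unlabeled RNA. Both libraries thus carry the same genotype and the same pulse, and nothing here compares cell states. With 1 library of each no difference has a replicate check, no test was possible, and the words higher and lower describe these libraries only. A low value can come from fewer transcripts per cell or from fewer cells that make them, and these cannot be told apart in bulk RNA.

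Every transcript had an exon value and 91702 of them also had an intron value. They are called TPM, but each column summed to 10 times a TPM total. Introns took 15.4% of the labeled and 6.26% of the unlabeled column. Read depth is unknown, so no counting error can be given. Isoforms of a gene share exons and often have like values, so they are not independent. All 91 member transcripts had a mean exon value above 1. Of them, 2 had no intron value, 7 had an unlabeled intron value of 0 and 3 also a labeled one of 0. Of the 8 stem cell markers, 7 had a leading coding transcript with an intron value, at 65.9 to 3263 in labeled and 72.9 to 3453 in unlabeled RNA, and Sox2 summed to 154 and 345. Of the 5 fibroblast markers, Thy1 was highest at 6.03 and 14.5, and Col3a1 and S100a4 were at 0. The endoderm markers Gata6 and Sox17 were at 0 and Gata4 summed to 4.87 and 5.88. The mesoderm marker T was at 0.19 and 0.29. Of the neural markers Sox1 summed to 0.76 and 1.56, and Pax6 to 138 and 151 over its transcripts with at most 10.1 in its leading coding transcript.

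Clk kinases phosphorylate SR proteins, the serine- and arginine-rich splicing factors, and their own pre-mRNAs are known to keep the introns around exon 4 until the nucleus releases or splices them. A detained intron is one of this kind: the transcript is polyadenylated but waits in the nucleus with 1 or more introns. Ogt, the enzyme that adds O-linked N-acetylglucosamine to proteins, and Mat2a, the catalytic subunit of S-adenosylmethionine synthetase, are known to tune the splicing of their own introns to the state of the cell. Nxf1 is the main mRNA export receptor, Rbm5 an RNA-binding splicing regulator, and Ddx5 and Ddx17 are closely related RNA helicases.

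The splice sites of some introns that annotated transcripts hold are shown first, because the comparisons below turn on them. Introns are numbered along the coding transcript with the most exons. In Clk1, Clk2 and Clk4 these are introns 3 and 4, on both sides of exon 4 (91 bases in Clk1 and Clk4, 85 in Clk2). Transcripts of these genes hold other introns whole as well, namely introns 6, 10 and 12 in Clk1, introns 7 and 8 in Clk4 and intron 11 in Clk2. Each 5′ site is given as 3 exon and 6 intron bases and each 3′ site as 20 intron and 3 exon bases, from the GENCODE M21 transcript sequences, with the first and last intron bases (GT and AG) in capitals. Clk1 intron 3 is at chr1:58420212-58421082 (minus strand, 871 bases) and intron 4 at chr1:58419734-58420120 (387 bases). Clk4 intron 3 is at chr11:51272023-51273077 (plus strand, 1055 bases) and intron 4 at chr11:51273169-51273559 (391 bases). Clk2 intron 3 is at chr3:89168924-89169617 (plus strand, 694 bases) and intron 4 at chr3:89169703-89170048 (346 bases).
Clk1 intron 3, 5′ site: gggGTatga
Clk4 intron 3, 5′ site: tcgGTatga
Clk2 intron 3, 5′ site: tcaGTgagt
Clk1 intron 4, 5′ site: gatGTatag
Clk4 intron 4, 5′ site: gatGTatag
Clk2 intron 4, 5′ site: gatGTacaa
Clk1 intron 3, 3′ site: cgcccacttgacgtgtccAGaag
Clk4 intron 3, 3′ site: ctgcccacttgccgttccAGaag
Clk2 intron 3, 3′ site: cccccaccccccgacagcAGcac
Clk1 intron 4, 3′ site: taattattcctcttttttAGatg
Clk4 intron 4, 3′ site: ctttctctcccttactttAGatg
Clk2 intron 4, 3′ site: cctactttctttcgtttcAGatg

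The 5′ site of intron 4 was the same 9 bases in Clk1 and Clk4. Set base by base on the strand of the gene against CAGGTAAGT, the usual mammalian 5′ site, intron 4 matched at 4 of 9 bases in each of Clk1, Clk2 and Clk4, and intron 3 matched at 5 in each. The 20 introns that retained-intron transcripts of the members hold whole, with at least 3 exon bases on each side, lie in 7 genes, and 3 of them (15%) had 4 or fewer matches. Over all 4362 such introns of 2290 genes 4.91% had 4 or fewer. The 3 were intron 4 of these same Clk genes, which share ancestry and do not count as separate cases. The members' 20 introns had a median length of 366.5 bases against 257 over all, and a median GC content of 40.2% against 50.8%. Sites with 7 or more matches were 25% of the members' and 36.8% of all.

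Outside the Clk family, 3 held introns are shown because results below turn on them, Nxf1 intron 10, Ogt intron 5 and Ddx5 intron 11. Nxf1 intron 10 (chr19:8765032-8766796, plus strand, 1765 bases) is held whole by a transcript annotated as coding, Nxf1-209. Ogt intron 5 (chrX:101652209-101655623, plus strand, 3415 bases) is entered from its 5′ end by all 3 retained-intron transcripts of the gene, which end inside it. Ddx5 intron 11 (chr11:106782694-106783958, minus strand, 1265 bases) is held whole by the NMD transcript Ddx5-208.
Nxf1 intron 10, 5′ site: cagGTcagt
Ogt intron 5, 5′ site: aagGTaggt
Ddx5 intron 11, 5′ site: tagGTtagt
Nxf1 intron 10, 3′ site: ttctgtcccgttcttgacAGcgc
Ogt intron 5, 3′ site: tttcattaaaccctcctaAGgca
Ddx5 intron 11, 3′ site: cacactgcaacaccttacAGatg
The 5′ sites of these introns matched the usual letters at 8, 7 and 7 of 9 bases, so they lack the low match of the Clk intron 4 sites. The letters describe the sites and say nothing of how often they were used.

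Among the kinases, the exons of Clk1 were higher in labeled RNA, and those of Clk4 were lower. Clk1 (ENSMUSG00000026034, chr1:58410189-58424066) summed over 13 transcripts to an exon value of 3503 in labeled and 2578 in unlabeled RNA, a ratio of 1.36. Clk2 (ENSMUSG00000068917, chr3:89164795-89176921), over 11 transcripts, summed to 728 and 722, a ratio of 1.01. Clk3 (ENSMUSG00000032316, chr9:57750624-57765860) had 1 transcript in the table, with 22.4 in labeled and 20.3 in unlabeled RNA, a ratio of 1.11. Clk3 thus had the lowest sum of the family, but only 1 of its 9 annotated transcripts is in the table. That transcript, Clk3-201, was also below the leading coding transcripts of Clk1, Clk2 and Clk4 (288, 140 and 273 in unlabeled RNA). Of its 2496 bases, 584 overlap Edc3 on the opposite strand. Whether the library kept strand is not given in the sources used here, so reads of Clk3 and Edc3 may be mixed there. Clk4 (ENSMUSG00000020385, chr11:51261730-51281766), over 14 transcripts, summed to 1619 and 1960, a ratio of 0.826. Ratios this near 1 depend on the scale: Clk2 was at 0.943 when divided by the median of all genes, and Clk2 and Clk3 were at 0.867 and 0.966 when leakage of unlabeled RNA was subtracted, while Clk1 stayed at 1.20 to 1.51 over the alternatives.

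The other 6 genes were all lower in labeled than in unlabeled RNA. Nxf1 (ENSMUSG00000010097, chr19:8757073-8770922) summed over 10 transcripts to 1977 and 3125, a ratio of 0.633. Ddx5 (ENSMUSG00000020719, chr11:106780355-106789185), over 9 transcripts, summed to 3394 and 5669, a ratio of 0.599. Ogt (ENSMUSG00000034160, chrX:101640060-101684351), over 7 transcripts, summed to 1164 and 1946, a ratio of 0.598. These 3 genes therefore had nearly the same ratio, at different levels. Rbm5 (ENSMUSG00000032580, chr9:107740371-107770996) summed over 24 transcripts to 2121 and 3848, a ratio of 0.551. Ddx17 (ENSMUSG00000055065, chr15:79527736-79546741) had 1 transcript in the table, at 192 and 385, a ratio of 0.5002. Mat2a (ENSMUSG00000053907, chr6:72432799-72439558), also with 1, was at 526 and 1247, a ratio of 0.422 and the lowest of the 10. In Mat2a 213 of 2804 transcript bases overlap Particl on the opposite strand. Ddx17 shares 4 bases with Kdelr3 and lay just outside the 2-fold line that Mat2a passed.

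The median ratio of the 10 genes was 0.616, and that of all 22785 genes with a mean summed exon value above 1 was 1.07 (quartiles 0.60 and 2.30). These are genes of any type. With a minimum of 10 the median of all genes was 0.934, and that of the members stayed at 0.616. None of the 10 genes was at least 2-fold higher in labeled RNA, where 28.9% of all genes were. 1 of the 10, Mat2a, was at least 2-fold lower, where 17.5% of all genes were. The table holds 1 of 9 annotated transcripts of Clk3, 1 of 4 of Ddx17 and 1 of 10 of Mat2a, so noncoding forms of these 3 genes were not analysed here.

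**Figure D1:**
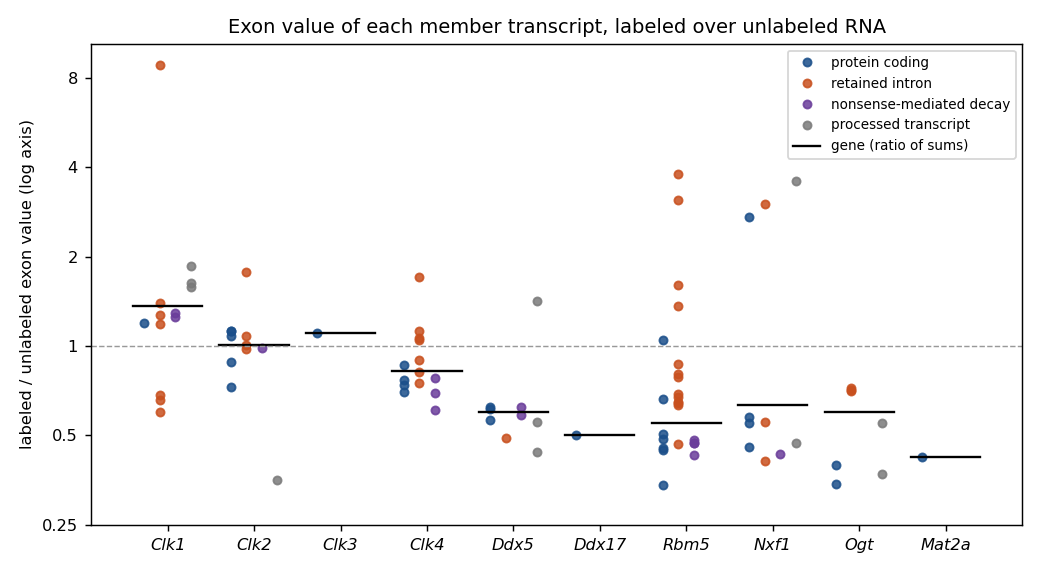
The ratio of labeled to unlabeled exon value (log axis) of each of the 91 member transcripts, by gene and coloured by biotype, with the ratio of the gene's sums as a black bar and 1 as a dashed line. The points of Ogt, Ddx17 and Mat2a all lie below 1, Clk1 has 1 retained-intron transcript at 8.83, and Rbm5 and Nxf1 have transcripts on both sides.

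By biotype, the retained-intron transcripts of the members pooled over genes had a higher median ratio than the coding ones, but not in most genes taken singly. The median ratio was 0.623 over the 29 coding transcripts (0.770 over all coding transcripts) and 0.845 over the 38 retained-intron transcripts (1.12 over all). The 13 NMD transcripts had a median of 0.610 (0.786 over all) and the 11 processed transcripts one of 0.554 (0.930 over all). Pooled over genes, the members' medians were thus below the background median in each of the 4 biotypes. Clk1 went the other way in all 4, with medians of 1.20, 1.19, 1.27 and 1.63 in the same order. Also above were the coding medians of Clk2 (1.08) and Clk3 (1.11), the NMD value of Clk2 (0.988) and the processed median of Nxf1 (2.03). A background of like exon value was not compared. Genes give unequal numbers of transcripts to each pool. Within genes, the retained-intron median was above the coding one in 3 of 7 (Clk4, Rbm5 and Ogt), where it was in 70.3% of 5111 genes. It was below in the other 4, by little in Clk1 (1.19 and 1.20), Clk2 (1.04 and 1.08) and Nxf1 (0.555 and 0.564) and by more in Ddx5 (0.489 and 0.615). Among the coding transcripts 1 was at least 2-fold higher (15.0% of all) and 8 at least 2-fold lower (26.5% of all). Among the retained-intron transcripts 4 were at least 2-fold higher (29.7% of all) and 3 lower (18.5% of all). None of the NMD transcripts was at least 2-fold higher (15.2% of all) and 5 were lower (25.7% of all). Of the processed transcripts 1 was higher (24.9% of all) and 4 were lower (24.2% of all). The NMD transcripts ran from Rbm5-221 at 0.431 (186 and 433) to Clk1-210 at 1.29, and the processed ones from Clk2-208 at 0.355 (17.6 and 49.5) to Nxf1-203 at 3.59.

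In Clk1 the transcripts differed in ratio, and those with the highest and lowest ratios lay in different parts of the gene. The coding transcript Clk1-201 (ENSMUST00000034868) was at 345 in labeled and 288 in unlabeled RNA, a ratio of 1.20. The leading retained-intron transcript, Clk1-209 (ENSMUST00000147258, chr1:58421626-58424066), was at 584 and 66.1, a ratio of 8.83 and the highest of all 91 members. It consists of exons 1 and 2 and the first 148 bases of intron 2, which make up 32.5% of its 456 bases. No other Clk1 transcript in the table holds a base of intron 2. At the other end of the gene, the processed transcripts Clk1-207, Clk1-203 and Clk1-208 had ratios of 1.58, 1.63 and 1.86. The longer retained-intron form Clk1-202, which ends at the same base as Clk1-207 and Clk1-208, was at 1.27, near the coding transcript. The lowest ratios of the gene, 0.601, 0.657 and 0.686, belonged to Clk1-213, Clk1-205 and Clk1-206, retained-intron forms that neither start at the first nor end at the last exon. The 2 Clk1 transcripts that hold introns 3 and 4 whole, Clk1-204 and Clk1-212, lay with the coding transcript, at ratios of 1.39 and 1.19. Both start at the same base as Clk1-209, at 8.83. Whether position goes with the ratio was not tested.

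**Figure D2:**
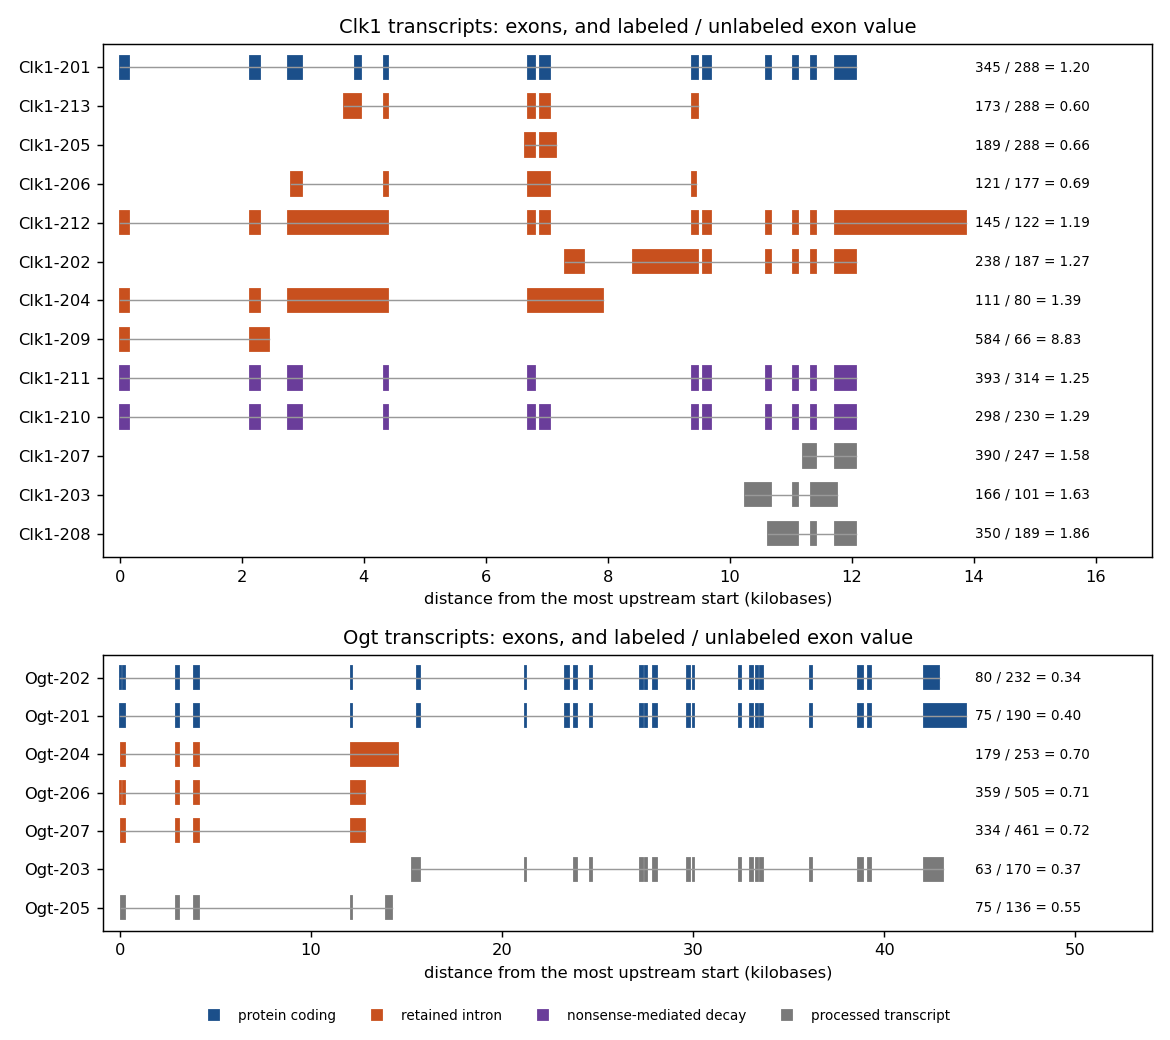
Exons (boxes) of the 13 Clk1 and 7 Ogt transcripts against the distance from the most upstream start in kilobases, coloured by biotype, with labeled and unlabeled exon values and their ratio at the right. The highest Clk1 ratio, 8.83, belongs to a short transcript at the 5′ end, and the 3 Ogt retained-intron transcripts, at 0.70 to 0.72, all end inside intron 5.

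Around exon 4 of the Clk genes, each gene with several transcripts had forms that splice the exon in, skip it, or hold both flanking introns. In Clk1 the exon 4 form Clk1-201 was at 345 and 288. The skipping forms Clk1-210 and Clk1-211, both NMD transcripts, were at 298 and 230 and at 393 and 314. The forms that hold introns 3 and 4 were lower, Clk1-212 at 145 and 122 and Clk1-204 at 111 and 79.7. In Clk4 the exon 4 form Clk4-201 was at 134 and 155, the skipping coding form Clk4-203 at 188 and 253, the skipping NMD forms Clk4-204 and Clk4-212 at 88.8 and 146 and at 79.8 and 102, and Clk4-213, which holds both introns, at 86.7 and 81.2. In Clk2 the exon 4 form Clk2-209 was at 152 and 140, the skipping NMD form Clk2-204 at 88.0 and 89.1, and Clk2-207, with both introns, at 61.9 and 61.4. In unlabeled RNA the forms with both introns were thus below the exon 4 and skipping forms named here in each of the 3 genes. In labeled RNA the same held except that Clk4-213 was above Clk4-212. The shorter skipping form Clk1-206, at 121 and 177, was below Clk1-212 in labeled RNA as well. Values of such long forms also include reads of exons shared with the spliced forms.

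Ogt differed from the kinases in that its retained-intron transcripts were above its coding ones in both libraries. The coding transcript Ogt-202 (ENSMUST00000119299) was at 79.6 in labeled and 232 in unlabeled RNA, and Ogt-201 at 75.5 and 190. Ogt-206 (ENSMUST00000155713, chrX:101640062-101652877) was at 359 and 505, Ogt-207 at 334 and 461, and Ogt-204 at 179 and 253. Ogt-206 and Ogt-207 hold the first 669 and 686 bases of intron 5, and Ogt-204, the lowest of the 3, the first 2378 bases. The processed transcript Ogt-205, which takes only bases 1768 to 2110 of intron 5, was at 74.6 and 136, at or below the coding forms. The values were therefore highest for the transcripts limited to the 5′ part of the intron, whose 5′ site is given above. Intron 5 makes up 50.8% of Ogt-206, 51.5% of Ogt-207 and 77.0% of Ogt-204. The rest is exon of the coding forms, so these values include reads of shared exons and do not place signal within the intron. The ratio of labeled to unlabeled was 0.705 to 0.725 in the 3 retained-intron transcripts and 0.343 and 0.398 in the coding ones, and the groups did not overlap. Ogt was the 1 gene of 5 with at least 2 transcripts of each kind where every retained-intron ratio was above every coding one, as in 20.9% of 2406 genes. All 3 retained-intron transcripts lie in the 5′ part of the gene, while the coding ones span it. Among the processed transcripts, Ogt-205, also in the 5′ part, had a ratio of 0.550. Ogt-203, which starts inside intron 5 and runs to the 3′ part, had one of 0.371. Biotype and position were not separated here.

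The 3 transcripts in which Nxf1 was higher in labeled RNA lie at its 3′ end. The coding Nxf1-208 was at 159 and 58.3 (ratio 2.72), the retained-intron Nxf1-207 at 158 and 52.6 (3.001) and the processed Nxf1-203 at 231 and 64.5 (3.59). The full-length coding transcript Nxf1-201 (ENSMUST00000010241) was at 282 and 489, a ratio of 0.576. Nxf1-209, which holds intron 10 whole over 43.7% of its 4042 bases, was at 132 and 239. Its value was 0.467 times that of Nxf1-201 in labeled and 0.488 times in unlabeled RNA, and both include reads of the exons they share. Nxf1-204, a coding form that ends 260 bases into intron 10, was at 218 and 477, a ratio of 0.457. The leading retained-intron transcript, Nxf1-205 (ENSMUST00000184387), which takes short stretches of introns 11 and 16, was at 315 and 768 and had the lowest ratio of the retained-intron transcripts, 0.410.

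In Rbm5 the 4 retained-intron transcripts with ratios above 1 were also the 4 with the lowest unlabeled values. Rbm5-207 (10.8 and 2.85) had a ratio of 3.78, and Rbm5-215 (26.5 and 8.54) one of 3.10. Rbm5-202 (9.86 and 6.15) and Rbm5-213 (29.1 and 21.3) had ratios of 1.60 and 1.37. In each of these 4 transcripts a single intron made up 70.9% to 79.9% of the bases. A high intron content did not always go with a ratio above 1. Rbm5-203, with 68.7% of its bases from 1 intron, was at 0.802 (107 and 133), and Rbm5-223, with 53.4%, at 0.466 (97.2 and 208). Ratios over such low unlabeled values are uncertain, and what sets them was not tested. The leading coding transcript Rbm5-208 was at 144 and 425, with the lowest ratio of all member coding transcripts, 0.340. The leading retained-intron transcript Rbm5-212 (ENSMUST00000182422) was at 183 and 270, a ratio of 0.675, and 19% of it is intron.

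Ddx5, a highly expressed helicase, had like ratios in most of its forms. The coding Ddx5-201 (ENSMUST00000021062) was at 574 and 922, a ratio of 0.623, and the NMD transcript Ddx5-208, which holds intron 11 whole, was at 622 and 1061, a ratio of 0.586. Ddx5-208 shares 101 bases with the microRNA gene Gm25994 and 67 with Mir3064, on the same strand. The retained-intron Ddx5-202, which takes the first 226 bases of intron 11, was at 238 and 487, a ratio of 0.489. The processed Ddx5-209, most of it intron 5, was at 254 and 179 and was the only Ddx5 transcript higher in labeled RNA, at 1.42.

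The retained-intron transcripts took a larger share of the summed exon value than in the typical gene, but this share grows with the number of such transcripts annotated and is not a share of molecules. In unlabeled RNA it was 62.6% in Ogt (3 such transcripts), 46.9% in Clk1 (7), 40.1% in Clk4 (7), 39.6% in Nxf1 (3), 35.2% in Rbm5 (13), 27.0% in Clk2 (4) and 8.59% in Ddx5 (1). In labeled RNA it was 74.8%, 44.6%, 46.2%, 35.6%, 45.6%, 30.2% and 7.01% in the same order. The medians over these 7 genes were 39.6% in unlabeled and 44.6% in labeled RNA, against 21.8% and 27.5% over all 5994 genes with such transcripts. The share was higher in labeled RNA in 4 of the 7 genes (Ogt, Clk4, Rbm5 and Clk2), where 67.2% of all genes were.

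Set 1 to 1, the leading retained-intron transcript was at or above the leading coding transcript in labeled RNA in 4 of the 7 genes (38.0% of 5073 genes) and in unlabeled RNA in 2 (28.3%). The 2 were Ogt, at 2.17 times the coding value, and Nxf1, at 1.57 times. In labeled RNA they were at 4.51 and 1.12 times, with Clk1 at 1.69 and Rbm5 at 1.26 times. The Nxf1 form here, Nxf1-205, holds only 69 bases of intron 11 and 42 of intron 16 in its 519 bases. The rest is exon of the coding transcript, so its value says little of a held intron. Rbm5 was at 0.637 times in unlabeled RNA. Clk1 was at 0.230 times there, but its leading form Clk1-209 was chosen by the mean of both libraries, which its labeled value carries. With the highest form chosen in each library on its own, a setting added once the values had been seen, Clk1-205 was level with the coding transcript in unlabeled RNA (288.1 and 287.9). The count in unlabeled RNA was then 3 of 7 (28.3% of 5111 genes) and that in labeled RNA 4 (38.1%). In Clk4 the leading retained-intron transcript Clk4-208, which holds intron 7, was at 181 and 241 and the coding Clk4-202 at 211 and 273, or 0.861 and 0.881 times. In Clk2 they were Clk2-206, which holds intron 4, at 95.5 and 88.6 and Clk2-209 at 152 and 140, or 0.630 and 0.631 times. Ddx5 was at 0.414 and 0.528 times, so these 3 genes stayed below the coding value. Over all genes the medians were 0.822 and 0.642.

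**Figure D3:**
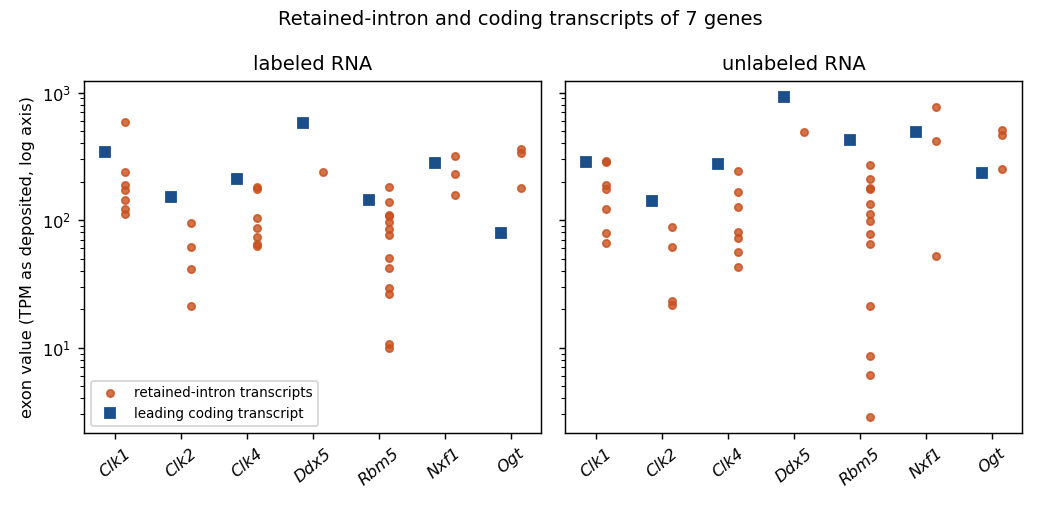
Exon values (deposited TPM scale, log axis) of the leading coding transcript (squares) and of every retained-intron transcript (circles) of the 7 genes that have them, in labeled RNA (left) and unlabeled RNA (right). In unlabeled RNA the circles of Ogt all lie above its square at 232, and 1 of Nxf1 lies above its square at 489.

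The intron values are given separately from the exon values, but how they treat bases that retained-intron forms hold as exon is not known. The labeled to unlabeled intron ratio was lower in the leading coding transcripts of 5 genes than in those of the Clk kinases and Mat2a. Over all 31386 coding transcripts with 4 values above 0, the intron value was 3.98 times as high in labeled as in unlabeled RNA at the median (quartiles 2.82 and 5.48). Over the 29 member coding transcripts the median was 2.63. The intron value was at least 2-fold higher in labeled RNA in 19 of the 29, where 89.0% of all coding transcripts were. The 19 were 10 of the 11 Clk coding transcripts and 9 of the 18 of the other genes. It was not higher in 1, where 2.61% of all were.

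That 1 was Ddx17-201, whose introns were at 68.9 in labeled and 70.5 in unlabeled RNA, a ratio of 0.978. The intron value of Ddx5-201 was 150 and 102, a ratio of 1.47. Those of Nxf1-201 were 11.8 and 7.83, a ratio of 1.504, and those of Ogt-202 were 45.3 and 30.04, a ratio of 1.51. Rbm5-208, with 36.5 and 23.7, had a ratio of 1.54. These 5 leading coding transcripts were all below the lower quartile of all coding transcripts, as were those of Clk3 and Clk2. The other 5 were higher than these 5: Clk3-201 at 2.43 (12.6 and 5.18), Clk2-209 at 2.78 (24.1 and 8.68), Clk1-201 at 3.19 (49.8 and 15.6), Mat2a-201 at 3.52 (127 and 36.0) and Clk4-202 at 3.53 (47.7 and 13.5). Other coding forms of a gene could differ widely. Ddx5-206, which ends shortly past intron 5, had introns at 59.6 and 4.13, and Rbm5-205 at 8.37 and 0.64. Both had ratios above those of all Clk coding transcripts, while Clk2-210 at 1.44 lay below Ddx5-201. In Ddx5, 3 forms that span at least part of intron 11 had introns at nearly equal values in both libraries. They were the processed Ddx5-207 at 297 and 270, the NMD Ddx5-205 at 171 and 159 and the processed Ddx5-203 at 139 and 130. Ddx5-205 and Ddx5-203 have 4 exons each, so their introns also span exons of Ddx5-201, which has 13. Whether reads of those exons entered these intron values was not tested. Nxf1-204 had introns at 12.1 and 11.7, a ratio of 1.04. It holds the first 260 bases of intron 10 as exon and ends there, so its intron value includes no part of intron 10.

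**Figure D4:**
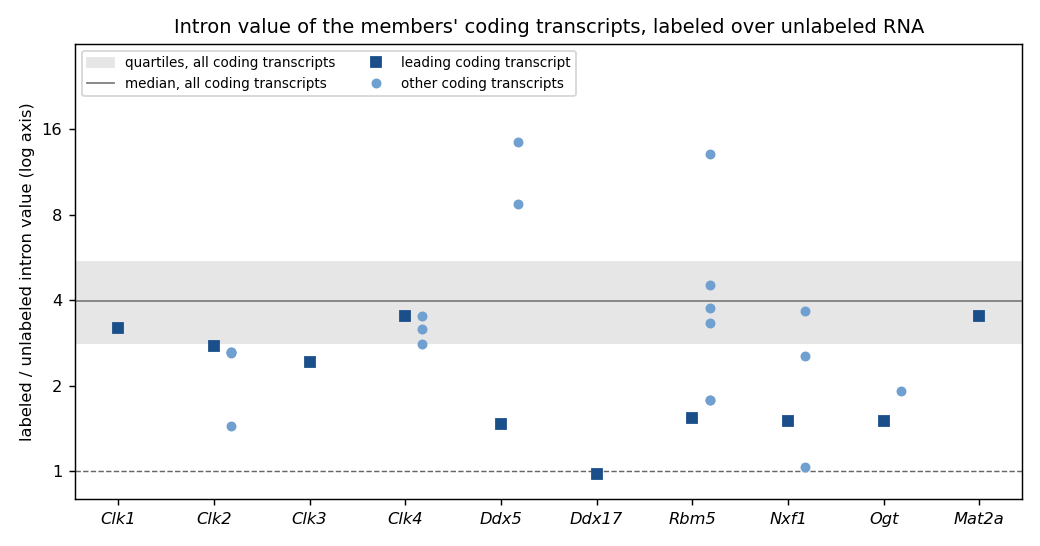
The ratio of labeled to unlabeled intron value (log axis) of the members' 29 coding transcripts by gene, with squares for the leading coding transcript, the median (3.98) and quartiles (2.82 to 5.48) of all coding transcripts in grey, and 1 as a dashed line. The squares of Ddx5, Ddx17, Rbm5, Nxf1 and Ogt lie between 0.978 and 1.54, and those of the Clk genes and Mat2a between 2.43 and 3.53.

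Relative to their exons, however, the members' introns were low in both libraries when set against all coding transcripts. The intron to exon ratio of the coding transcripts had a median of 0.270 in labeled and 0.0646 in unlabeled RNA, against 0.570 and 0.111 over all coding transcripts. An unlabeled ratio of 0.5 or more was found in 1 of the 29, Clk2-210 at 1.04, where 16.5% of all were, and the same transcript alone had a labeled ratio of 1 or more (2.06), where 28.2% of all were. Its exon values were 11.4 and 15.6, the lowest of the coding members. The next highest unlabeled ratios were 0.256 in Clk3-201 and 0.183 in Ddx17-201, and the lowest of the leading transcripts was 0.0160 in Nxf1-201. Set against all coding transcripts, intron values thus did not mark the members as rich in unlabeled intron against exon. All coding transcripts had lower exon values, with medians of 19.7 in labeled and 23.8 in unlabeled RNA against 132 and 217 in the members. A background of like exon value was not compared. The leading coding transcripts of the members had median ratios of 0.247 in labeled and 0.0588 in unlabeled RNA. Those of the 28 related genes below had 0.314 and 0.0380. Whether the authors' intron rows leave out bases that another isoform holds as exon is not given in the sources used here, and reads from a held intron may have gone to the exon value of that isoform.

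**Figure D5:**
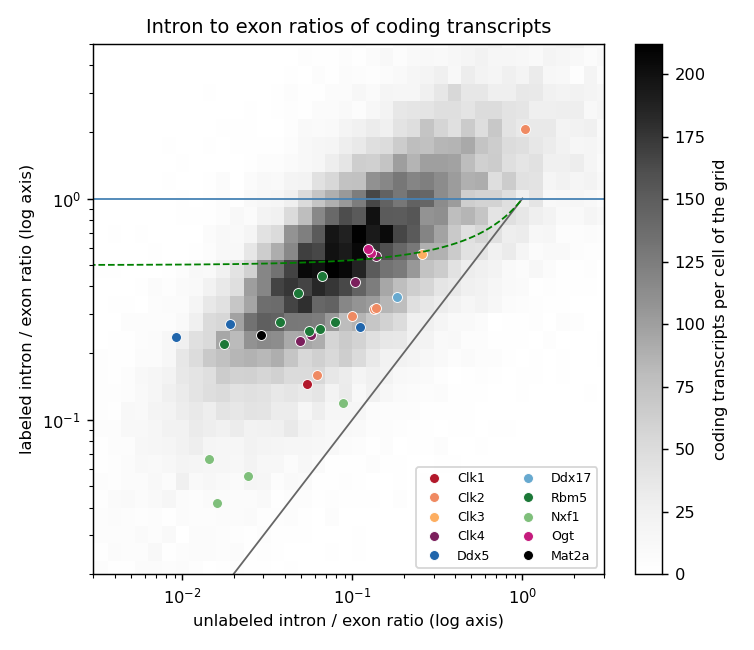
Labeled against unlabeled intron to exon ratio (log axes) of the members' 29 coding transcripts, coloured by gene, over a grid that counts all 31386 coding transcripts. The grey diagonal marks equal ratios, the blue line a labeled ratio of 1 and the green dashed line the lower edge of the region where the rate model has 1 solution. Clk2-210 lies above the blue line, Ogt-201, Ogt-202 and Clk4-205 lie between the green and blue lines, and the Nxf1 transcripts lie lowest.

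The single-sample rate model of the study takes these ratios as input, with an unlabeled ratio that must be below a labeled ratio under 1. It could be applied to 28 of the 29 coding transcripts (66.7% of all). Above the line of single solutions lay 3, where 22.5% of all did, and none fell on or below the diagonal with a labeled ratio under 1, where 5.10% of all did. For Ogt-201 the processing half-life was 4.98 min and the degradation half-life 11.4 min. For Ogt-202 they were 4.32 and 8.44 min, and for Clk4-205 3.74 and 6.25 min. Rbm5-222 had 2 solutions, and for the other 24 no rates met both equations. Over all 28 the median distance from a solution was 0.753 on the natural log scale, against 0.246 over all compatible coding transcripts. The medians of the 28, 3.72 min for processing and 16.4 min for degradation, therefore rest mostly on nearest points and not on solutions. Degradation half-lives also depend on how the second library is read: as total RNA, that of Ogt-201 was 40.5 min, of Ogt-202 34.8 min and of Clk4-205 30.1 min.

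The 28 genes listed as related to the members by pathway were all measured. Their median ratio of labeled to unlabeled exon value was 0.683, with 1 at least 2-fold higher and 9 at least 2-fold lower (against the 28.9% and 17.5% of all genes above). Of the other kinases of SR proteins 4 of 5 were at least 2-fold lower, where none of the Clk genes was: Dyrk1b at 0.229 (6.78 and 29.6), the lowest of all 28, Srpk1 at 0.360, Prpf4b at 0.436 and Dyrk1a at 0.462, with Srpk2 at 1.11. Of the S-adenosylmethionine genes 1 of 4 was 2-fold lower, Ahcy, which clears S-adenosylhomocysteine, at 0.282 (229 and 810). Mat2b, the regulatory partner of Mat2a, and Mettl16, the methyltransferase that binds the Mat2a message, were both at 0.683. Of the 4 O-GlcNAc and hexosamine genes Gfpt1 was 2-fold lower at 0.293, and Oga, which removes the sugar that Ogt adds, was at 0.684.

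Of the 9 export genes 4 were above 1. Over all genes 47.6% lay below the 1.01 of Clk2, so this count is near the share of all genes. Nxt1, the partner of Nxf1, was at 2.55 (111 and 43.7), the highest of the 28, and Ddx39a at 1.60 (696 and 435), and Nxt2 was 2-fold lower at 0.419. Of the Rbm5 relatives Rbm6 was at 0.765 and Rbm10 at 0.574. Among partners and relatives of the helicases 2 of 4 were 2-fold lower, Ddx3x at 0.386 and Drosha at 0.398. The intron to exon ratios of the 28 leading coding transcripts had medians of 0.314 in labeled and 0.0380 in unlabeled RNA.

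The genes most like Clk1 were named over 3 log2 values, the gene exon ratio and the labeled and unlabeled intron to exon ratios of the leading coding transcript, among 10308 genes. By Euclidean distance they were Acp6 (0.177), Nemf (0.197) and Zcrb1 (0.200). These distances rest on 2 libraries.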

How the data were processed

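Labeled and unlabeled RNA of mESC were measured in 1 library each. The authors aligned the reads with STAR 2.5.0 to exonic and intronic sequence (mm10, GRCm38), quantified them with RSEM, and deposited relative signal values, called TPM, whose columns each sum to 10 times a TPM total. The paper names Ensembl v91 as annotation. Depth is unknown, so no interval could be set.

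Biotypes, coordinates and transcript sequences were taken from GENCODE M21 by transcript ID (110366 of 121429 found). Ratios were formed from the values as deposited, for genes and transcripts with a mean exon value above 1 and values above 0, with no pseudocount. Called means 2-fold. In each gene the leading coding transcript is the coding one with the highest mean exon value among those with an intron row, and the leading retained-intron transcript the one with the highest mean exon value. All 10 genes were named, with their leading transcripts, the extremes per biotype, the 2 highest and 2 lowest related genes and the 3 genes most like Clk1. Other transcripts and related genes were named after their values were seen. Members and lists were chosen with earlier results of these data known. Rates used Eqs. 10 to 17 of the paper on 4000 grid points. The code was tested on simulated data. The alternatives tried were other minimums, a pseudocount of 0.1, rescaling, leading transcripts only, subtraction of leakage (0.142 times the unlabeled value, the 1st percentile of the exon ratio), other shares, Eq. 15 over both variables and the second library read as total RNA. Ratios were computed in Python 3.11.15 with pandas 2.3.3 and numpy 2.4.6, rates with scipy 1.17.1, and plots with matplotlib 3.10.9.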

Additional observations from a re-analysis of the deposited data

How the results depend on the processing

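No paired analysis was possible because each pool had 1 library and no test was made. With no replicates, a value was taken to move when it changed by over 1.5 times. Of the alternatives to the main values 83 stayed within that and 11 did not, and none reversed a direction called at 2-fold. The genes at least 2-fold lower in labeled RNA rose from 1 to 2 when ratios were divided by the median of all genes, to 3 with the leading coding transcript only and to 6 with leakage subtracted. The median of the processed transcripts went from 0.554 to 0.855 as a ratio of sums. Counting all noncoding forms raised the median share from 44.6% to 69.3% in labeled and from 39.6% to 63.8% in unlabeled RNA. From the leading transcripts alone it was 52.8% and 38.9%, a setting added once the data had been seen. With leakage subtracted 7 coding transcripts had an exact solution, in place of 4. The median processing half-life fell to 1.80 min with Eq. 15 over both variables and to 1.71 min with the second library read as total RNA, and the median degradation half-life became 3.23 and 26.3 min. With the leading coding transcript only, Rbm5 was at 0.340 and Ogt at 0.343, and with leakage subtracted Mat2a was at 0.280. The median intron ratio of labeled to unlabeled RNA, compared after seeing the data, was 2.49 to 2.63 over its alternatives, and 19 of 29 coding transcripts stayed at least 2-fold higher. Over all coding transcripts with a mean exon value above 10 it was 4.14. The cause of these shifts was not tested. Unknown depth limits all ratios of low values. Among them are the intron values of Nxf1, the values of Clk3 and those of the Rbm5 retained-intron transcripts with ratios above 1.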
